A study of Arabidopsis thaliana with 36 samples.

Results

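The comparison set the plants of plate 2 apart from those of plates 4 and 6 within spaceflight (FLT): 4 arrays of FLT plate 2 stood against 14 arrays of FLT plates 4 and 6, 18 of the 36 arrays of the series. The question was which genes differed on FLT plate 2 in leaves, hypocotyls, roots and whole plants alike. FLT plate 2 gave 1 array for each of these 4 tissues. FLT plates 4 and 6 each gave 2 arrays of leaves, of hypocotyls and of roots and 1 of whole plants. The 18 ground control (GC) arrays had the same layout and served for the same comparison on Earth. Leaves are named shoots in the deposited labels.

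All plants were Arabidopsis thaliana seedlings that grew for 12 days on solid medium. Before that, dormant seeds had waited 12 days for their exposure to light, on the station for FLT and on the ground for GC. Plates 2, 4 and 6 were the upper tier of an imaging unit inside the Advanced Biological Research System (ABRS), a small lit growth chamber. GC plates were grown in identical hardware, in a chamber at Kennedy Space Center set to the recorded station conditions. Every plate carried 3 reporter lines, Adh::GFP (green fluorescent protein under the alcohol dehydrogenase promoter), DR5r::GFP (under a synthetic auxin response element) and 35s::GFP (under a constitutive viral promoter). Organ arrays held RNA of pooled plants, 60% of the Wassilewskija (WS) and 40% of the Columbia (Col-0) background, and whole-plant arrays held WS plants. All plants were fixed in RNAlater at harvest.

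FLT plate 2 was a single plate, and its organ arrays came from the same plants. The p-values measure mainly the spread between arrays and not that between plates. The fit put the correlation between arrays of a plant pool at 0.047, so organ arrays of the same plants counted as nearly independent. Whatever was particular to FLT plate 2 cannot be told apart from its position. In pooled tissue, a lower signal from fewer cells of a type cannot be told apart from a lower signal per cell.

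Many of the genes that follow belong to the rapid stress responses of plants. Bending, touch or wounding opens calcium channels, and calmodulin-like sensors, protein kinases and reactive oxygen species then switch on genes of the WRKY, ZAT zinc finger and AP2/ERF transcription factor families within minutes. The CBF genes, also named DREB1, are the AP2/ERF members best known from cold, where they act on cold-regulated (COR) genes, and they too are switched on by touch. Many of these messages are short-lived, so their level follows the recent past of the tissue.

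The median signal ran from 158 to 203 over the 36 arrays. The trimmed mean, from 493 to 496, follows from the scaling of each array and is no check on them. The lower quartile ran from 27 to 68.9. It was highest in GC plate 2 leaves, against 32.9 to 45.6 in the other GC leaves. FLT plate 2 leaves correlated at r of 0.87 with that array and at 0.906 to 0.92 with the other GC leaves. The 5 measured leaf markers averaged 13.54 to 14.04 on the log2 scale in FLT leaves, 12.31 to 12.97 in FLT whole plants, 9.94 to 10.88 in FLT hypocotyls and 8.17 to 9.02 in FLT roots, and 8 root markers averaged 8.79 to 9.36 in FLT roots and 4.62 to 5.69 in FLT leaves, so the markers were highest in the organs the labels name. FLT plate 2 lay inside the range of FLT plates 4 and 6 for the leaf markers in each tissue, and the same held for the root markers but in roots, where it equalled the lowest of the other arrays at 8.79, and in whole plants, at 6.12 against 6.79 and 6.95. The values of FLT plate 2 whole plants were deposited with 3 significant digits, unlike those of the other arrays. Over all probe sets that array correlated at r of 0.896 and 0.894 with FLT plates 4 and 6, which correlated at 0.883 with each other, and at 0.921, 0.903 and 0.916 with GC plates 2, 4 and 6.

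Across the 4 tissues, 181 of 22746 probe sets differed between FLT plate 2 and FLT plates 4 and 6, which is 0.796% (limma with tissue as a factor and the plant pool as a random block, Benjamini-Hochberg adjusted p under 0.05). Of these, 166 were lower on FLT plate 2 and 15 were higher, or 0.730% and 0.0659% of all probe sets. The 166 had a median log2 difference of −1.41, with a range of −3.79 to −0.48, and 134 of them differed by more than 2-fold. The 15 had a median of 0.96 and a range of 0.57 to 1.92, and 5 of them differed by more than 2-fold. The median over all probe sets was 0.04.

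The called probe sets were chosen by a fit over the 4 tissues of these same arrays, which favours the same sign in each tissue. All 166 lower probe sets had the same sign in the 4 tissues, and the median difference was −1.49 for leaves, −1.44 for hypocotyls, −1.14 for roots and −1.39 for whole plants. For 158 of them the FLT plate 2 array lay below each of the FLT plate 4 and 6 arrays in all 4 tissues, and all 15 higher probe sets lay above. Without regard to a test, 327 probe sets lay below and 227 lay above in this way, 1.44% and 0.998% of all. Under scaling to a shared 75th percentile these became 391 below and 147 above, and over the 3 organs alone 415 below and 445 above.

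**Figure D1:**
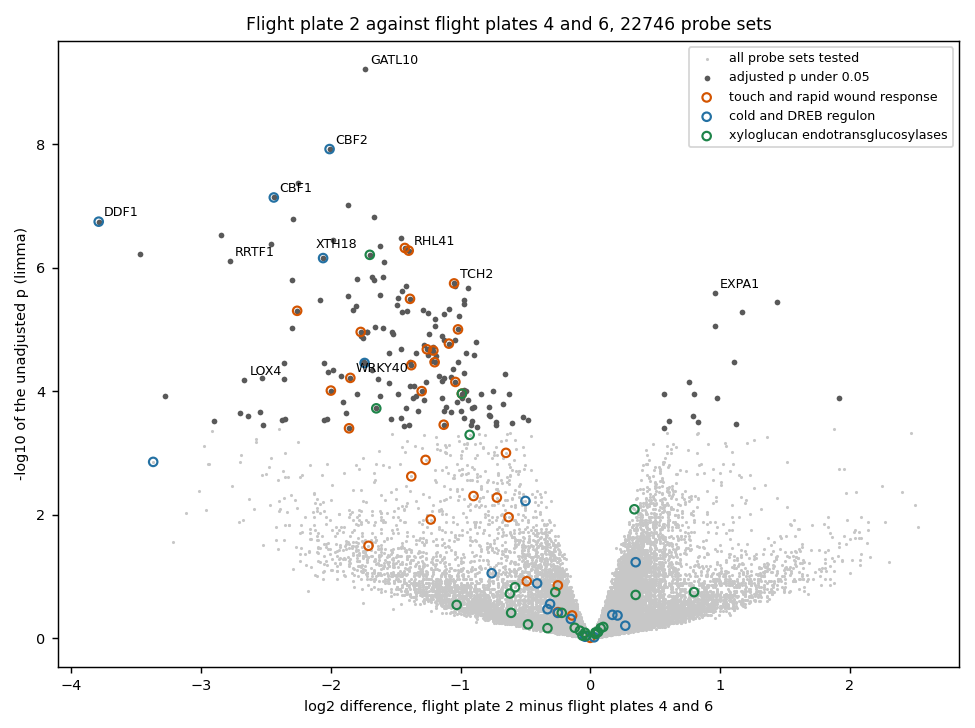
Each point is a probe set, with the log2 difference of FLT plate 2 minus FLT plates 4 and 6 on the horizontal axis and −log10 of the unadjusted limma p on the vertical axis. Of the 181 darker points past the threshold, 166 lie on the lower side, among them rings of the touch and cold lists, and 15 on the higher side.

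The call rested on few plants. Without the FLT plate 2 array of leaves, of hypocotyls or of whole plants, 97, 99 and 100 probe sets were called, and without that of roots 146. Against FLT plate 4 alone 8 were called, and against FLT plate 6 alone 213. When each pool was reduced to a mean, leaving 8 pools, 0 probe sets passed in limma and 1941 had an unadjusted p under 0.05, against 2024, or 8.90%, in the comparison of arrays.

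The largest lower difference was that of DDF1, of the CBF subgroup of AP2/ERF transcription factors. DDF1 (AT1G12610), which is known from gibberellin and salt responses, was 13.8-fold lower on FLT plate 2, a log2 difference of −3.79 (SE 0.41, adjusted p = 0.00051 in limma). In leaves its signal was 28.8 on FLT plate 2, against 198 and 206 on FLT plate 4 and 479 and 731 on FLT plate 6. In hypocotyls it was 22.3, against 794 and 598 on FLT plate 4 and 959 and 548 on FLT plate 6. The gap was as wide in roots, with 19.7 on FLT plate 2 against 384, 248, 455 and 468 on FLT plates 4 and 6, and in whole plants the signals were 76.4 on FLT plate 2 and 268 and 443 on FLT plates 4 and 6. In each tissue FLT plate 2 lay below every array of FLT plates 4 and 6. In leaves, hypocotyls and roots its FLT plate 2 signals were below the lower quartile of those arrays (31.2, 28.2 and 47). At such low signals, with no offset before log2, the size of the fold is imprecise.

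CBF2 (AT4G25470) had the more abundant signal and the smaller fold. It was 1059 in leaves of FLT plate 2, against 3859 and 3693 on FLT plate 4 and 4127 and 4085 on FLT plate 6. In hypocotyls it was 890, against 4514, 5858, 6545 and 5401 on FLT plates 4 and 6. Roots gave 638 against 1662, 2105, 2503 and 3024, and whole plants 797 against 2200 and 2831. The 4 values of FLT plate 2 were below all 14 of FLT plates 4 and 6, whatever the tissue, and the log2 difference was −2.01 (SE 0.18, adjusted p = 0.00014 in limma).

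CBF1 (AT4G25490) was 5.43-fold lower and DREB1A (AT4G25480), the third member of the cluster also known as CBF3, was 3.35-fold lower. For leaves, hypocotyls, roots and whole plants, CBF1 signals were 133, 321, 186 and 131 on FLT plate 2, against 797 to 1404, 1215 to 2912, 702 to 913 and 400 to 683 on FLT plates 4 and 6. DREB2A (AT5G05410), a related factor of the drought and heat response, was 4.18-fold lower, with the widest gap in hypocotyls, where 221 on FLT plate 2 stood against 913 to 1564 on FLT plates 4 and 6. The remaining gene of this subgroup, ddf2, had a log2 difference of −3.37 but did not pass (adjusted p = 0.11). These genes are near relatives, and whether their probe sets pick up each other's message was not tested.

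In the cold and DREB list only transcription factors passed the test, which does not show that the other members were unchanged. Of 19 measured members of the cold and DREB list, 5 were lower, all of them transcription factors (DDF1, CBF1, DREB2A, CBF2 and DREB1A), against 0.730% lower of all probe sets, and the median of the list was −0.33, against 0.04 over all probe sets. The cold-regulated genes COR15A, COR15B, COR47 and LTI78 had log2 differences of 0.03, 0.17, −0.15 and −0.31, with adjusted p of 0.8 and above in limma. Without leaves or without hypocotyls 4 members of the list were lower, against FLT plate 4 alone 1 was, and over the means of 8 pools 0 passed in limma.

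**Figure D2:**
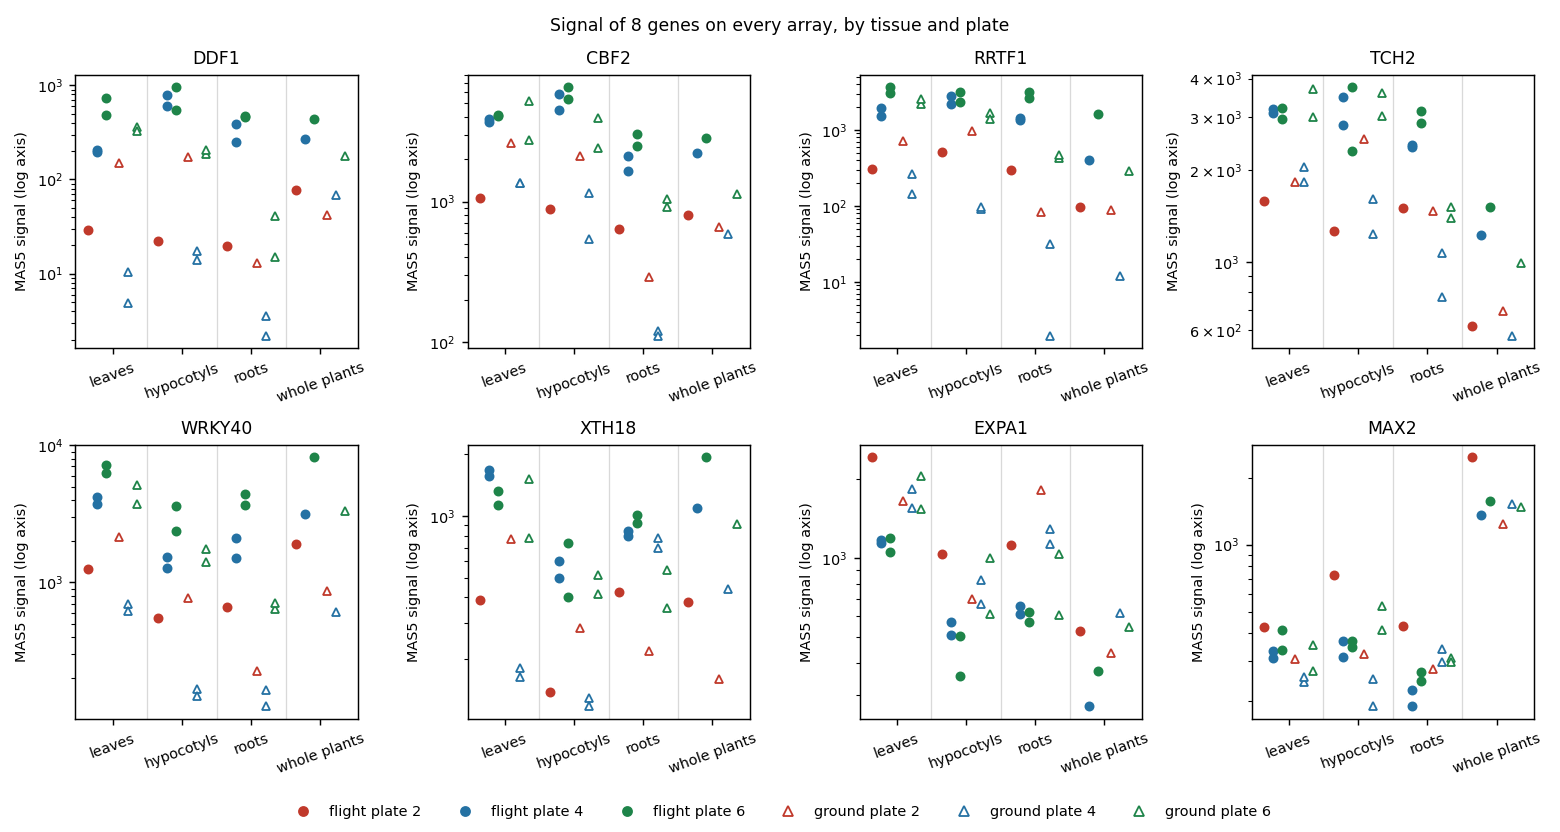
MAS5 signal on a log axis for 8 genes, by tissue, with filled circles for FLT arrays and open triangles for GC arrays, coloured by plate. For DDF1, CBF2, RRTF1, TCH2, WRKY40 and XTH18 the FLT plate 2 array is the lowest FLT array of each tissue, and for EXPA1 and MAX2 it is the highest.

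The list of touch and rapid wound genes had the lowest median of the 32 gene lists examined. The lists were chosen with earlier results of these data known, so this rank is a description. Of its 32 members 19 were lower on FLT plate 2 and none was higher, against 0.730% lower of all probe sets. The list median was −1.20, and the medians by tissue were −1.07 for leaves, −1.14 for hypocotyls, −1.07 for roots and −1.25 for whole plants. For 25 of the 32 the FLT plate 2 array was below every FLT plate 4 and 6 array in all 4 tissues, against 1.44% of all probe sets. Leaving out the FLT plate 2 array of leaves, of hypocotyls or of whole plants left 11 lower members each time. Without all arrays of leaves 3 members were lower, without all of hypocotyls 4, and over the means of 8 pools 0 passed in limma. Against FLT plate 4 alone 0 passed in limma, at a median of −0.96.

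TCH2 (AT5G37770), a calmodulin-like protein named for its induction by touch, had a signal of 1591 in leaves of FLT plate 2, against 3187, 3089, 2959 and 3198 on FLT plates 4 and 6. Hypocotyls gave 1265 against 3473, 2824, 3754 and 2318, and roots 1506 against 2424, 2385, 2857 and 3142. Whole plants gave 617 against 1231 and 1515, so FLT plate 2 lay below FLT plates 4 and 6 in each tissue. The log2 difference was −1.05 (SE 0.14, adjusted p = 0.0016), close to 2-fold in each tissue. The calcium sensor CML37 (AT5G42380) was 4.79-fold lower and its relative CML38 2.19-fold lower. TCH3, another calmodulin-like touch gene, had a difference of −0.63 and did not pass (adjusted p = 0.33).

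Among the transcription factors of the same list, MYB15 was 3.99-fold lower, WRKY40 3.6-fold, WRKY18 2.6-fold and WRKY33 2.4-fold. WRKY40 (AT1G80840), a regulator of defence and of wound responses, had 1250 in leaves of FLT plate 2, against 3757 and 4188 on FLT plate 4 and 6228 and 7235 on FLT plate 6. In hypocotyls it had 545 against 1271, 1531, 3620 and 2380, and in roots 666 against 1505, 2108, 3685 and 4432. Whole plants gave 1910 against 3138 and 8147. FLT plate 2 was lowest in each tissue and FLT plate 4 lay between it and FLT plate 6, and WRKY40 also differed between FLT plates 4 and 6 (log2 difference −1.05, adjusted p = 0.008 in limma).

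The zinc finger repressors STZ (AT1G27730, also ZAT10) and RHL41 (AT5G59820, also ZAT12) were 2.29-fold and 2.63-fold lower, and ZAT6 was 2.31-fold lower. Signals of RHL41 in leaves, hypocotyls, roots and whole plants were 1538, 1002, 1590 and 1250 on FLT plate 2, against 2821 to 4410, 1915 to 2871, 3080 to 4627 and 3544 to 4788 on FLT plates 4 and 6. The CCCH zinc finger proteins SZF1 and CZF1, the mitochondrial dicarboxylate carriers DIC2 and UCP5, the deadenylases CAF1a and CAF1b, which shorten the tail of messages, and the ubiquitin ligase PUB23 were lower by 2.03-fold to 3.42-fold. PHI-1, named for induction by phosphate, was 3.62-fold lower and only just passed the threshold. Members that missed it included the calmodulin-like CML23 (−1.27, adjusted p = 0.11) and the ethylene response factors ERF5 (−0.90, adjusted p = 0.23) and ERF6 (−0.49, adjusted p = 0.68).

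**Figure D3:**
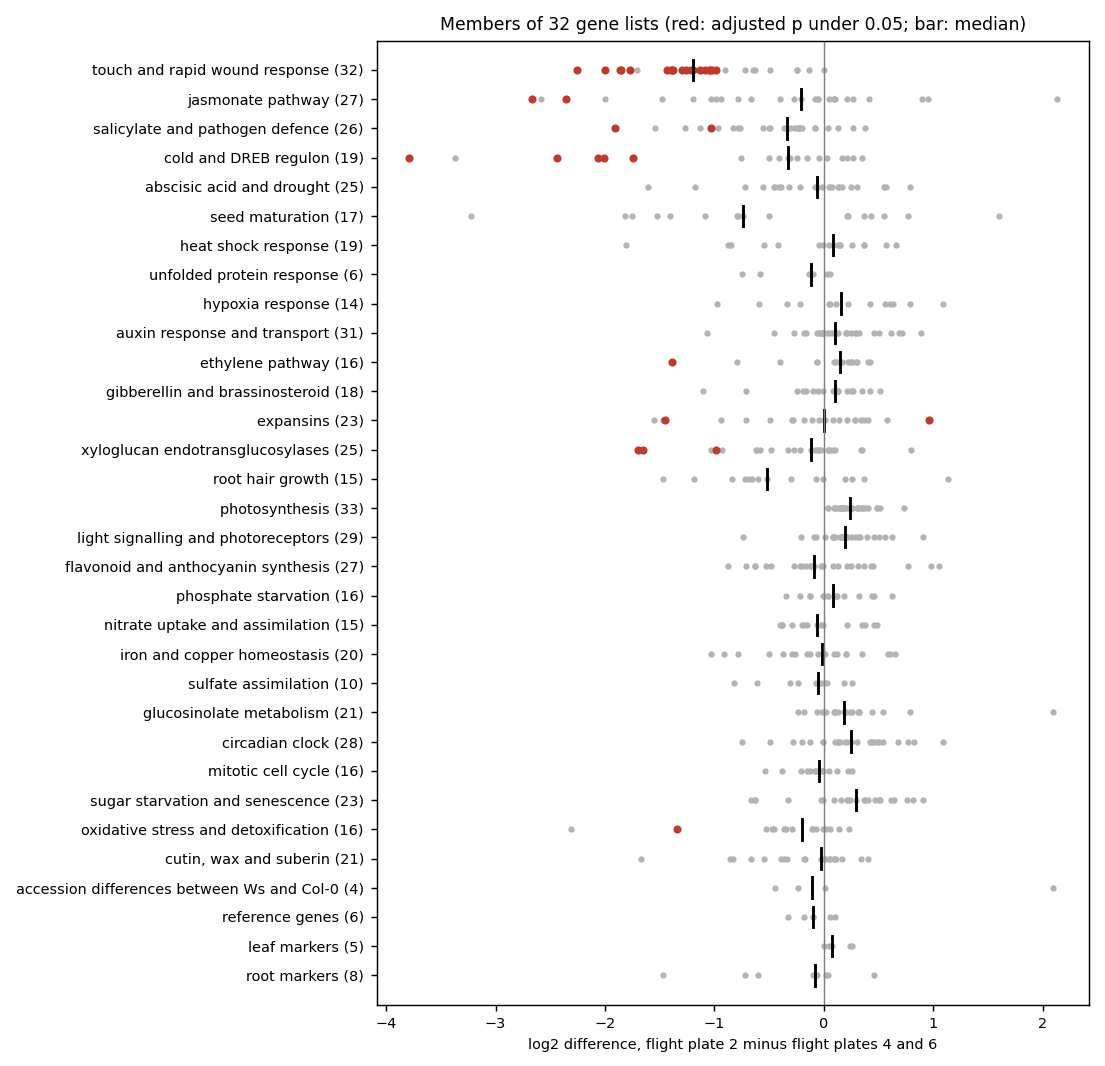
Each point is the log2 difference of a gene, FLT plate 2 minus FLT plates 4 and 6, in 32 lists with the number of measured members in parentheses; red points passed the threshold and black bars are medians. The touch and rapid wound list lies furthest to the left with 19 red points and a median of −1.20, while photosynthesis and the circadian clock have medians of 0.24 and 0.25 and no red point.

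Outside the CBF subgroup, AT5G52050 had the largest lower difference. AT5G52050, annotated as the detoxification efflux carrier DTX50, was 11.1-fold lower (log2 difference −3.47, SE 0.42, adjusted p = 0.00083). Its signal was 41 in leaves of FLT plate 2, against 455 to 672 on FLT plates 4 and 6, and 8.75 in whole plants, against 231 and 593. In hypocotyls and roots the values were 144 and 103 on FLT plate 2, against 698 to 973 and 272 to 786. Its log2 difference was −5.40 in whole plants and −3.73, −2.59 and −2.34 in leaves, hypocotyls and roots. The whole-plant signal of 8.75 was below the lower quartile of that array, 43.2, so the size of that difference is imprecise.

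RRTF1 (AT4G34410), a redox-responsive AP2/ERF transcription factor, was 6.85-fold lower (log2 difference −2.78, SE 0.34, adjusted p = 0.00092). Leaves of FLT plate 2 had 309, against 1939, 1548, 3090 and 3680 on FLT plates 4 and 6. Hypocotyls had 508 against 2205, 2776, 3183 and 2349, roots had 299 against 1332, 1452, 2647 and 3199, and whole plants had 97.3 against 398 and 1645. No array of FLT plate 2 reached the lowest of the other plates in its tissue. AGC2-1 (AT3G25250), the kinase also named OXI1 that is activated by oxidative signals, was 5.49-fold lower, with 68.4 in roots of FLT plate 2 against 304 to 854 on FLT plates 4 and 6.

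AT4G29780 had the smallest error among the 15 lower genes of largest difference, at −2.25 (SE 0.22, adjusted p = 0.00032), with 1453, 992, 795 and 1040 on FLT plate 2 for leaves, hypocotyls, roots and whole plants, against 4988 to 7785, 5527 to 7049, 2801 to 5763 and 3104 to 4858 on FLT plates 4 and 6. AT1G19210, AT3G02840 and AT4G39670 were 7.21-fold, 4.92-fold and 4.88-fold lower. COBL8, a member of the COBRA-like family of cell-surface proteins, RAS1, named for its response to abscisic acid and salt, and DIP2 were lower by 5.14-fold, 5.09-fold and 4.93-fold. RAS1 leaned on leaves, where it had 10.4 on FLT plate 2 against 205 to 422 on FLT plates 4 and 6: its difference was −4.85 there and −1.13 to −1.85 elsewhere, and −1.48 without that array, when it did not pass. Against FLT plate 4 alone, CBF1, RRTF1, AGC2-1, AT1G19210, AT3G02840 and AT4G29780 still passed.

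The smallest p of all belonged to GATL10 (AT3G28340), annotated as a galacturonosyltransferase-like protein, a gene picked after its values were seen. It had 437, 356, 456 and 301 in the 4 tissues of FLT plate 2, against 1287 to 1476, 964 to 1372, 1245 to 1641 and 946 to 1327 on FLT plates 4 and 6. FLT plates 4 and 6 were alike for GATL10, at a log2 difference of −0.08 between them, and the 3.34-fold drop on FLT plate 2 was nearly even over tissues, from −1.67 to −1.90.

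Few members of the hormone lists passed the test. The counts of lower members in these and the following lists stand beside 0.730% lower and 0.0659% higher of all probe sets. In the jasmonate list 2 of 27 members were lower and none was higher, at a median of −0.21: LOX4 (AT1G72520), a lipoxygenase at the start of jasmonate synthesis, by 6.37-fold, and CYP94B3 (AT3G48520), which oxidises the active hormone jasmonoyl-isoleucine, by 5.15-fold. LOX4 had 249, 97.5, 66.8 and 150 in the 4 tissues of FLT plate 2 and lay below every other array of its tissue, but without any 1 of the FLT plate 2 arrays it no longer passed. LOX4 was also lower on FLT plate 4 than on FLT plate 6 (log2 difference −1.47, adjusted p = 0.024 in limma). On FLT plate 4 against FLT plate 6, 11 of the 27 members were lower and 1 was higher, at a median of −0.66. Of all probe sets 1.16% were lower there. For FLT plate 2, 0 members were lower against FLT plate 4 alone and 6 against FLT plate 6 alone. The JAZ repressors, which respond fast to jasmonate, had 0 of 9 members past the threshold in limma, with JAZ1 at −0.94 (adjusted p = 0.14) and JAZ10 at 0.05 (adjusted p = 0.99). In the ethylene list ACS6, an enzyme of ethylene synthesis, was 2.63-fold lower, and it was the only member of 16 to pass, at a list median of 0.15.

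In the salicylate list 2 of 26 members were lower and none was higher, at a median of −0.34. These were the glutaredoxin GRX480 and NIMIN1, which binds the salicylate regulator NPR1, at 3.76-fold and 2.05-fold. The pathogenesis-related gene PR1 had a difference of −0.97 (adjusted p = 0.72). GRX480 was lower on FLT plate 4 than on FLT plate 6 as well, by −1.20 (adjusted p = 0.01 in limma).

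Genes of the cell wall were split. Of 25 xyloglucan endotransglucosylases, enzymes that cut and rejoin wall xyloglucans, 3 were lower and none was higher, at a median of −0.12. XTH18 (AT4G30280) had 390 in leaves of FLT plate 2, against 1564, 1676, 1135 and 1324 on FLT plates 4 and 6. Hypocotyls had 139 against 500, 602, 740 and 402, roots had 427 against 797, 839, 1006 and 924, and whole plants had 381 against 1086 and 1925. The log2 difference was −1.70 (SE 0.20, adjusted p = 0.00083), and FLT plate 2 lay below FLT plates 4 and 6 in each tissue.

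The touch gene TCH4 (AT5G57560), an enzyme of the same family, was 1.99-fold lower and XTR6 (AT4G25810) 3.13-fold lower. TCH4 had strong signals, 9160 in leaves of FLT plate 2 against 13317 to 20250 on FLT plates 4 and 6, and its call was lost without any 1 of the 4 FLT plate 2 arrays. Of 23 expansins, proteins that loosen walls, EXLA1 was 2.73-fold lower and EXPA1 was 1.94-fold higher on FLT plate 2, and the list median was 0.00.

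EXPA1 (AT1G69530) was the higher gene with the smallest p. It had 2421 in leaves of FLT plate 2, against 1141, 1174, 1058 and 1191 on FLT plates 4 and 6. In hypocotyls it had 1039 against 511, 573, 357 and 507, and in roots 1123 against 660, 612, 569 and 624. Whole plants gave 530 against 273 and 370. FLT plate 2 was highest in every tissue, and the log2 difference was 0.96 (SE 0.13, adjusted p = 0.0019 in limma), from 0.74 to 1.12 by tissue.

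Other higher genes were fewer and their changes smaller. AT5G25280 was 2.71-fold higher, with 1603, 1738, 815 and 363 in the 4 tissues of FLT plate 2 against 428 to 649, 349 to 518, 278 to 480 and 176 and 206 on FLT plates 4 and 6. AT3G26510 was 2.25-fold higher, and its gap was even, from 1.08 to 1.29 on the log2 scale by tissue. RMA1, a ubiquitin ligase of the endoplasmic reticulum membrane, and AT1G49200 were 2.17-fold and 2.16-fold higher. AT1G11880 had the largest difference, 1.92, at signals of 44.1 to 114 on FLT plate 2, among the low-signal probe sets.

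MAX2 (AT2G42620), the F-box protein of strigolactone and karrikin signalling, was 1.69-fold higher. It had 429 in leaves of FLT plate 2 against 311 to 416 on FLT plates 4 and 6, and 734 in hypocotyls against 315 to 371. Roots gave 431 against 189 to 270, and whole plants 2460 against 1353 and 1567, so that the gap was narrowest in leaves. RTFL8, of the family of small ROTUNDIFOLIA peptides, AT4G28240, BRH1, a RING finger protein named for its response to brassinosteroid, OZF2, AT2G28200, ACR9 and AT1G47340 were higher by 1.48-fold to 1.97-fold. Several of these calls were weak: of 32 alternative settings, many of them with a single array left out, AT1G47340 did not pass in 27, ACR9 in 23, BRH1 and RMA1 in 21 each and AT2G28200 in 20. AT5G19120 and AT3G06130, with differences of 0.83 and 0.59, lay above the other plates in all 4 tissues but did not pass (adjusted p = 0.058 for both).

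Some gene families, grouped after the values were seen and mostly by the names their genes carry, held several lower members. Members known only by a locus number were not counted. All 5 genes grouped as ZAT zinc fingers were lower (STZ, RHL41, ZAT6, ZAT11 and ZF2). STZ, RHL41 and ZF2 are not listed under a ZAT name and were added singly, so this full count is no result about the family. TCH2 was likewise added to the CML genes. Of 10 CML genes 3 were lower, of 58 WRKY genes 4, of 21 genes for U-box ubiquitin ligases 3 (PUB23, CMPG1 and CMPG2), of 21 exocyst EXO70 genes 2 (EXO70B1 and EXO70B2), and of 9 SYP1 syntaxins 2 (SYP121 and SYP122, which work in secretion at the plasma membrane). No gene grouped in this way was higher, and of all probe sets 0.730% were lower. Of 8 genes that carry a SAUR name, only a part of this family of fast auxin-responsive genes, 0 passed in limma. All 8 had differences above 0, with a median of 0.65.

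Some further lower genes were likewise picked singly after their values were seen. The chitin receptor kinase LYK5, the kinase RIPK, the kinase MAPKKK14, the calcium-dependent kinase CPK32 and the receptor-like kinase SOBIR1 were lower by 1.99-fold to 3.29-fold. The calcium pump ACA1 was 2.19-fold lower. The beta-amylases CT-BMY and BAM1 were 2.33-fold and 1.96-fold lower, and FC1 and HEMA2 of tetrapyrrole synthesis 2.1-fold and 1.95-fold.

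Few members of the remaining lists passed the test. In the oxidative stress list 1 of 16 members was lower, the mitochondrial ATPase BCS1, by 2.53-fold. In the other 24 of the 32 lists no member passed in limma in either direction. Photosynthesis, with 33 members, had a median of 0.24, the circadian clock, with 28, had 0.25, and sugar starvation and senescence, with 23, had 0.29. The clock genes LHY, CCA1 and TOC1 had differences of −0.01, 0.13 and −0.20 (adjusted p of 0.85 and above). Seed maturation genes had a median of −0.74 and root hair genes of −0.52, with no member past the threshold. The 6 measured reference genes had a median of −0.10.

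A test of whether the difference of FLT plate 2 varied over the 4 tissues (limma, interaction of tissue and plate) called 11 of 22746 probe sets, or 0.0484%, with 1272, or 5.59%, at an unadjusted p under 0.05. None of the 11 was among the 181, and 14 of the 166 lower probe sets had an unadjusted p under 0.05. With 1 array of FLT plate 2 per tissue, the test took its spread from FLT plates 4 and 6.

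FLT plates 4 and 6 differed from each other too. Between them 350 of 22746 probe sets were called, 1.54%, with 86 higher and 264 lower on FLT plate 4 (limma with the same settings, 14 arrays). On FLT plate 4 the lower calls were 1.16% of all, and 3826 probe sets, or 16.8%, had an unadjusted p under 0.05. Of the 166 probe sets lower on FLT plate 2, 30 were called between FLT plates 4 and 6, and the 166 had a median log2 difference of −0.35, FLT plate 4 minus FLT plate 6. Both comparisons share the arrays of FLT plates 4 and 6. The mean log2 signal of the 166 in leaves was 8.53 on FLT plate 2, 10.03 and 10.08 on FLT plate 4 and 10.31 and 10.34 on FLT plate 6. In roots it was 8.75 on FLT plate 2, 9.71 and 9.79 on FLT plate 4 and 10.24 and 10.37 on FLT plate 6. The 166 were chosen for a low signal on FLT plate 2 of these same arrays, so its distance from the other plates is no result of its own.

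On the ground no probe set passed the test for plate 2. GC plate 2 against GC plates 4 and 6 gave 0 called probe sets in limma, or 0%, with 1400, or 6.15%, at an unadjusted p under 0.05, and the smallest adjusted p was 0.164. In all 4 tissues alike, GC plate 2 lay above the other GC plates for 120 probe sets (0.528%) and below for 57 (0.251%). The 166 had a median log2 difference of 0.04 there, with quartiles of −0.10 and 0.16, and 0 had an unadjusted p under 0.05. The error was wider on the ground, with a median SE of 0.41 for the 166 against 0.22 in flight. The 15 had a median of −0.02 on the ground. AT5G25280 had a ground difference of 0.38 (SE 0.12).

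**Figure D4:**
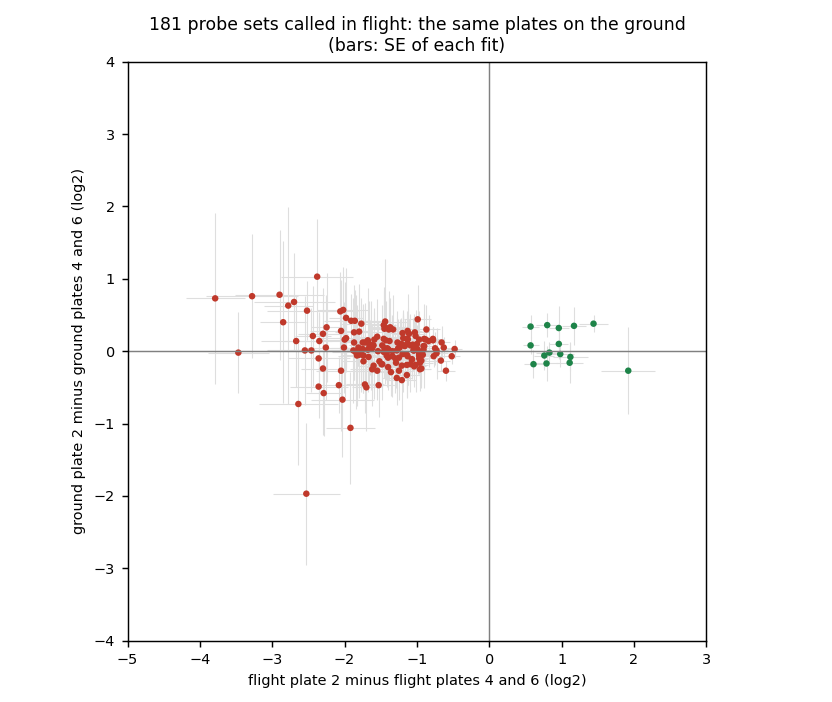
Each point is 1 of the 181 probe sets, with the log2 difference of plate 2 minus plates 4 and 6 in flight on the horizontal axis and on the ground on the vertical axis; bars are the SE of each fit. The 166 lower probe sets (red) spread from −3.79 to −0.48 in flight with a ground median of 0.04, and the 15 higher (green) from 0.57 to 1.92 with a ground median of −0.02.

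The difference between the flight and the ground comparison was tested directly. The difference of plate 2 in flight minus that on the ground gave 0 called probe sets over the 36 arrays in limma, 0%, with 1605, or 7.06%, at an unadjusted p under 0.05 and a smallest adjusted p of 0.19. For the 166 its median was −1.37 and for the 15 it was 0.86. Both medians contain the flight difference by which these probe sets were chosen and are given as a description. After adjustment none of the 181 was shown to differ between flight and ground.

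The GC plates differed widely in the level of the 166, with plate 6 high and plate 4 low. Their mean log2 signal in leaves was 9.57 on GC plate 2, 8.60 and 8.49 on GC plate 4 and 10.00 and 9.90 on GC plate 6. In hypocotyls it was 9.40, 8.54 and 8.11, and 9.76 and 9.71 in the same order, and in roots 8.30, 8.08 and 8.10, and 8.93 and 8.99. In whole plants GC plates 2, 4 and 6 had 8.25, 8.25 and 9.14. CBF2 followed this order in leaves, with 2629 on GC plate 2, 1366 and 1363 on GC plate 4 and 2732 and 5216 on GC plate 6.

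Against the GC arrays of the same tissue, FLT plate 2 lay mostly within range for the 166, as it did for all probe sets. The 166 were chosen for lying lower on FLT plate 2 than on FLT plates 4 and 6. In leaves 51 of the 166 were below, 115 within and 0 above the GC range on FLT plate 2, while 55 were above it on FLT plate 4 and 106 on FLT plate 6. In roots 18 were below, 110 within and 38 above on FLT plate 2, while 141 and 153 were above on FLT plates 4 and 6. Hypocotyls gave 43 below, 122 within and 1 above on FLT plate 2, with 94 and 110 above on FLT plates 4 and 6. In whole plants 36 were below, 121 within and 9 above on FLT plate 2, with 137 and 153 above on FLT plates 4 and 6. FLT plate 2 was a single array per tissue here, while FLT plates 4 and 6 each stood as a mean of 2 arrays in organs. The GC range spanned fewer arrays in whole plants than in organs. This count was made after the values were seen, and has no test.

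Over all 22746 probe sets FLT plate 2 was within the GC range for 15482 (leaves), 15246 (hypocotyls), 13771 (roots) and 11873 (whole plants). In the same order it was below the range for 4093, 3775, 3564 and 5800, and above it for 3171, 3725, 5411 and 5073. The mean of FLT plate 4 was above the range for 1652, 2855, 2543 and 6090 of all probe sets in the same tissues, and that of FLT plate 6 for 2886, 3278, 3354 and 7127. The 15 higher probe sets were chosen for a high signal on these FLT plate 2 arrays, which favours a place above the GC range. FLT plate 2 was above that range for 13 of them in leaves, 14 for hypocotyls, 9 for roots and 10 for whole plants. FLT plate 4 was above it for at most 3 and FLT plate 6 for at most 5. The mean log2 signal of the 15 in leaves was 9.58 on FLT plate 2, 8.49 to 8.70 on FLT plates 4 and 6 and 8.32 to 8.62 on the GC arrays.

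**Figure D5:**
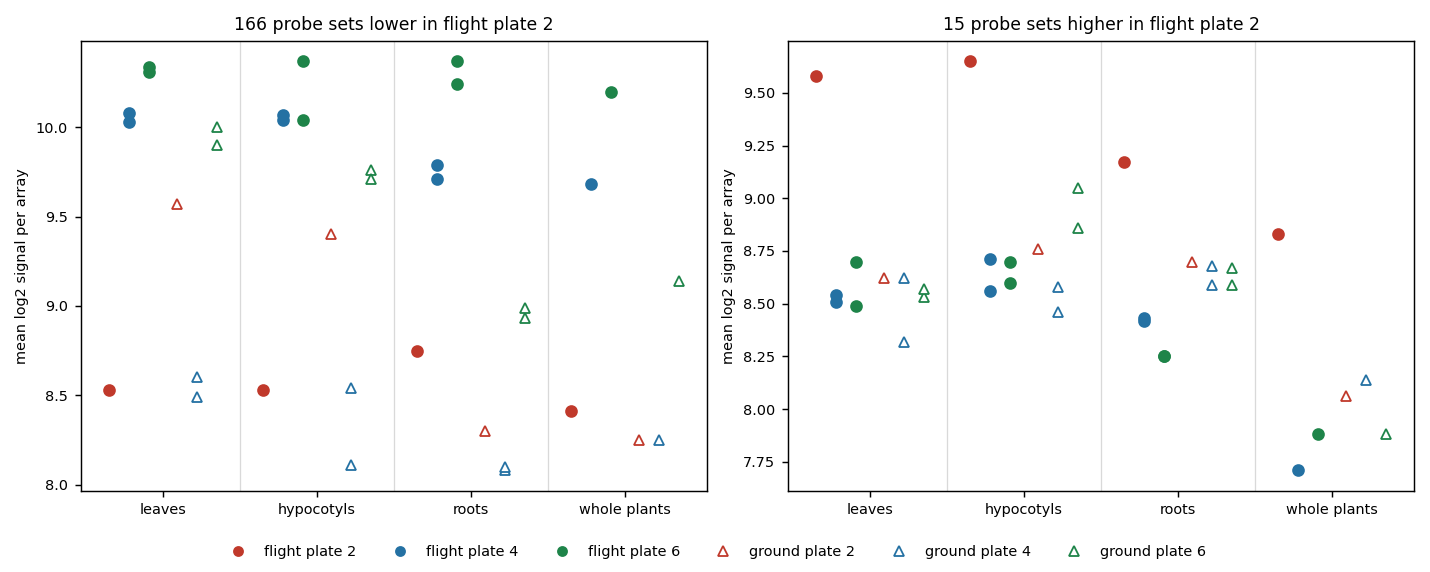
Mean log2 signal per array of the 166 lower (left) and 15 higher (right) probe sets, by tissue, with filled circles for FLT and open triangles for GC, coloured by plate. On the left FLT plate 2 lies at 8.41 to 8.75, below all other FLT arrays and among the GC arrays, and on the right it lies at 8.83 to 9.65, above all FLT and GC arrays of its tissue.

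Whole plants were WS alone, while organ arrays mixed WS and Col-0. For 25 of the 166 lower probe sets, 15.06%, and for 5 of the 15 higher, 33.33%, the whole-plant arrays of FLT and GC all lay beyond the range of the organ arrays, against 25.38% of all probe sets.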

How the data were processed

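RNA of pooled plants was amplified with the Ovation Pico system, labelled and hybridised to ATH1 arrays. The deposited values are MAS5 signal intensities on a linear scale, background-adjusted and scaled per array by the authors with Affymetrix's Expression Console, whose version is not given in the sources used here. Deposited tables of the authors' own p-values, q-values and fold changes of flight against ground were not used, apart from their gene annotation. Of the probe sets, 22746 that are no array controls were tested. The deposited signals were put on the log2 scale with no offset and fitted with limma 3.58.1 (lmFit, eBayes) in R 4.3.3, with tissue as a factor and the pool of plants as a random block. P-values were adjusted by the Benjamini-Hochberg method over all probe sets, and calls have an adjusted p under 0.05. The scripts were tested on simulated data that held no spread between plates, so that test does not bear on such spread. Python 3.11.15 drew the figures.

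Genes were named by a rule: single-gene probe sets above the 40th percentile of signal that passed and lay beyond the other plates in all 4 tissues, the 15 lower and 15 higher of largest difference (2 of the higher filled up by p), and up to 4 members of each of 32 lists by p. The signal limit of this rule did not have to be met on FLT plate 2, as a high signal on the other plates was enough. DDF1 was named with signals of 19.7 to 76.4 on FLT plate 2, below the limit of 100. A lower gene could therefore be near the floor on FLT plate 2, where the size of its fold is imprecise. Genes named otherwise were chosen after their values were seen. The plates compared and the lists were chosen with earlier results of these data known. Of 660 listed genes 650 matched TAIR10.1 RefSeq names and 598 were measured. A promoter motif count was not run. The number of arrays limits the precision.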

Additional observations from a re-analysis of the deposited data

Results flagged for a closer look

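For 11 probe sets the difference of FLT plate 2 varied between tissues (limma, interaction of tissue and plate), and for most of them a single low signal stood out. ARO1 had 0.517 in leaves of FLT plate 2, against 25.4 to 40.5 on FLT plates 4 and 6 (adjusted p = 0.038). SOT12, a sulfotransferase, had 4.88 in roots, against 129 to 210 (adjusted p = 0.038). AT1G18830 had 4.99 in leaves, against 33.3 to 43.2 (adjusted p = 0.038).

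In whole plants the low signals were those of AT5G22540, with 2.99 on FLT plate 2 against 61.3 and 57 on FLT plates 4 and 6, and AT3G13150, with 1.91 against 43.4 and 34.1 (adjusted p = 0.038 for both). AT1G05060 had 8.46 against 67.9 and 80.2 (adjusted p = 0.039), AT4G16610 4.88 against 62.1 and 42.8, and AT5G47510 1.41 against 52.6 and 96 (adjusted p = 0.044 for both). UPB1, a regulator of root growth, had 0.819 in hypocotyls, against 15.4 to 49.1 (adjusted p = 0.045). DOT4 had 2.26 in roots, against 29.1 to 50.8 (adjusted p = 0.046). A probe set that stands for several genes had log2 differences of 2.94, −2.43, −3.79 and −1.95 in leaves, hypocotyls, roots and whole plants (adjusted p = 0.038).

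Each such value rests on 1 array of FLT plate 2. With an offset of 32 added before log2, 0 probe sets were called in limma. Groups of 1 or 2 arrays allowed no test for outliers.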

How the results depend on the processing

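The comparison of FLT plate 2 with FLT plates 4 and 6 called 181 probe sets, and 304 with trend and robust variance, 110 without whole plants, 33 without leaves, 33 without hypocotyls, 8 against FLT plate 4 alone and 0 over the means of 8 pools. Leaving out each array in turn gave 97 to 188. Quantile scaling gave 189, 75th percentile scaling 226, an offset of 32 before log2 231, and leaving out low-signal probe sets 261. Of the 181, 168 were also called after quantile scaling and 179 after 75th percentile scaling. The difference between tissues gave 0 probe sets with the offset and 0 to 26 with an array left out. GC plate 2 against GC plates 4 and 6 gave 0 to 2 with an array left out (2 without GC plate 2 hypocotyls), and the flight minus ground difference 0.

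FLT plate 4 against FLT plate 6 called 350, and 752 with the offset, 1122 without low-signal probe sets, 950 with trend and robust variance and 99 to 247 with an array left out. Over the 3 organs 860 probe sets of FLT plate 2 lay beyond the other FLT arrays. Without the replicate block the counts were 201 for FLT plate 2, 10 between tissues, 0 on the ground, 0 for flight minus ground and 172 for FLT plate 4 against FLT plate 6. Differences between replicates correlated at −0.05 to 0.03 across organs, so whether the same replicate number marks the same pool in each organ is not settled. The random block and the means of 8 pools both rest on that reading of the numbers. Over 60 named genes and their settings, 1480 of 1920 values kept direction and side of the threshold, 429 missed it, 11 newly passed and 0 reversed. The promoter motif count was not run, and causes were not tested.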
